A study of Drosophila melanogaster with 11 samples.

Results

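The 7 genes described here form the core of the Jun N-terminal kinase (JNK) pathway of Drosophila: msn, slpr, hep, bsk, Jra, kay and puc. They were taken by symbol from 16509 listed genes. All 7 had signal in every library, and all 7 were among the 6050 genes tested. The gene msn was chosen by its hMeRIP peaks: several of the dTet-edited cells lie in it and none of the yellow-edited cells does. Its peak counts are therefore given as a description, with no test.

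JNK signalling is a relay of kinases. Misshapen (msn), a Ste20-type kinase, acts at the top and feeds into the mixed lineage kinase Slipper (slpr), which activates the MAP kinase kinase Hemipterous (hep), which in turn phosphorylates the fly JNK, Basket (bsk). Basket phosphorylates Jun (Jra), which pairs with Fos (kay) in the transcription factor AP-1. Puckered (puc) is a phosphatase that removes the activating phosphates from Basket and is itself switched on by AP-1, which closes a negative feedback loop. In flies the pathway is known for the sheet movements of dorsal closure and wound healing, for stress-induced cell death and for responses of blood cells to infection.

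All samples came from S2 cells, an embryo-derived Drosophila line with hemocyte (blood cell) character, grown in serum-free medium at 24°C. Transcripts were measured by polyA RNA-seq in 2 libraries labelled as dTet controls and 2 labelled as dTet knockdown. The sample labels name no reagent for either group, and the control data are named GFP without further explanation. The gene dTet codes for the only Tet protein of the fly, and Tet enzymes oxidise methylcytosine to hydroxymethylcytosine. Sites of RNA hydroxymethylcytosine were mapped by hMeRIP-seq, the sequencing of RNA fragments that an antibody to that base precipitates. Total RNA was used from 1 sample of CRISPR-edited cells with yellow as the target and 1 sample with dTet as the target. The gene yellow acts in pigmentation and served as the editing control. Nothing in the labels tells if replicates were grown as separate cultures or if an edited line was 1 clone, so the spread behind the p-values may be technical.

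The unit of the RNA-seq files is not stated and was inferred from the steps of their values. On this reading, signal is the mean number of reads per 40-bp bin of an exon, scaled by 1 factor per library, and levels compared between genes below are per length on that basis. One read in 1 bin counted for 0.340 to 0.476 signal, and 9156 to 9708 genes lay above 0 per library. Coverage along genes was less even in control 1. Over 4205 genes the median absolute log2 ratio of the first to the last exon was 1.73 there, against 1.19 to 1.28 in the other libraries. Of 12 hemocyte markers 9 reached a signal of 1 in all libraries, as did 2 of 6 neuron and glia markers, 1 of 5 germline markers, 0 of 6 muscle markers and 0 of 5 fat body markers. Summed over its list, the signal per library was 191 to 219 for hemocyte markers and 18.3 to 25.3 for neuron and glia markers. The targeted gene dTet, listed as CG43444, stood at 6.93 and 8.01 signal in the controls, against 4.88 and 6.60 under knockdown. Its log2 change of -0.34 did not pass the test (limma, adjusted p = 0.9995), so directions below are those of the libraries labelled knockdown.

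The 7 genes were expressed at unequal levels in control cells. The kinase gene msn and the Fos gene kay were the highest, at 17.3 ± 4.2 and 17.3 ± 0.69 signal (SD, n = 2 each), each above 93.9% of the 6086 genes detected in the controls at a mean signal of 1 or more. The feedback phosphatase gene puc followed at 6.21 ± 0.55 signal, then the Jun gene Jra at 5.35 ± 0.83 and the kinase gene hep at 4.85 ± 0.81. The mixed lineage kinase gene slpr had 3.61 ± 0.66 signal. The JNK gene bsk was the lowest, at 2.27 ± 1.28 signal and above 36.0% of detected genes. From puc to bsk neighbours differed by less than the sum of their SDs, although puc, Jra and hep kept this order in all 4 libraries. The pair msn and kay exchanged places between libraries, as did slpr and bsk. The gap between kay or msn and the other 5 genes held in all 4 libraries. The highest of the 7 genes exceeded the lowest 13.1-fold in control 1 and 6.11-fold to 6.75-fold in the other 3 libraries, since bsk was low in control 1 alone.

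**Figure D1:**
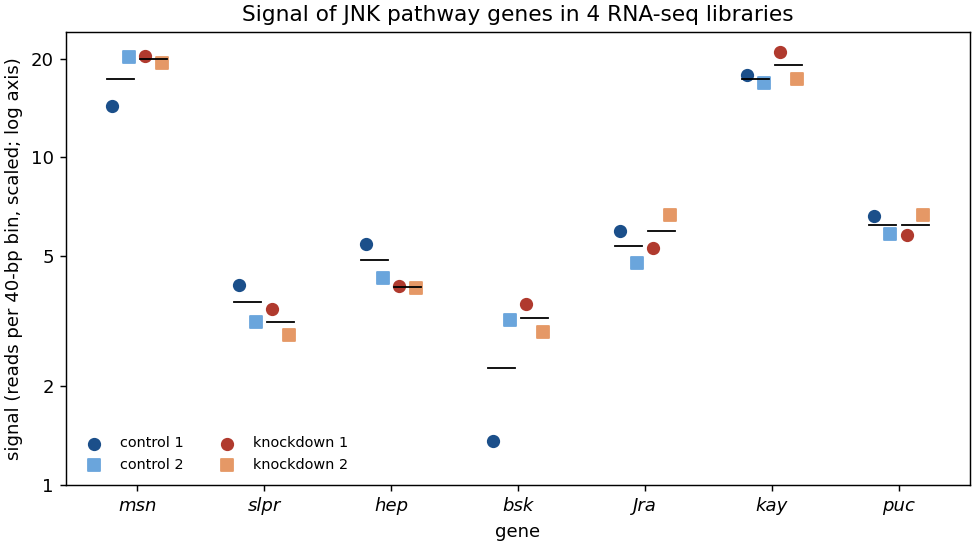
Signal of the 7 genes on a log axis, with a point for each of the 4 libraries and a line for each group mean (n = 2). Points for msn and kay lie between 14.4 and 21.0, bsk in control 1 lies at 1.36, and the control and knockdown points overlap for every gene but hep.

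The comparison of knockdown with control libraries asked whether transcripts of the pathway differ when dTet is targeted. None of the 7 genes passed the test, against 0.0% of all 6050 genes (limma on log2(signal + 1), Benjamini-Hochberg adjusted p under 0.05). The smallest unadjusted p among the 7 was 0.176, and 0 of the 7 fell under 0.05, where 4.05% of all genes did. On the log2 scale 5 genes were higher in the knockdown libraries and 2 lower, with a median of 0.13, while all tested genes had a median of -0.03 (2738 higher and 3310 lower). In size the changes were ordinary, with a median absolute log2 change of 0.15 for the 7 genes and 0.15 for all genes. Both knockdown libraries lay outside the range of the controls for 1 of the 7 genes, hep, and for 30.6% of all genes.

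Among the kinases, msn stood at 14.4 and 20.3 signal in the controls, against 20.4 and 19.4 under knockdown. Control 1 was low and the other 3 libraries lay close together, so the groups overlapped. The log2 change was 0.21 (standard error 0.20), with a 95% interval from -0.26 to 0.67 (limma, adjusted p = 0.9995). It was -0.03 without control 1 and 0.44 without control 2.

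The gene slpr had 4.08 and 3.14 signal in the controls, against 3.44 and 2.87 under knockdown. The groups overlapped, with knockdown 1 between the 2 controls, and the log2 change was -0.15 (interval -0.64 to 0.34). It ran from -0.29 without control 2 to -0.001 without control 1. Of its 5.59 kb of exons, 37 bp lie in an exon of CG2278. Over the exons that touch no other gene, which leave out 56.6% of the bins, the change was -0.06.

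The gene hep had 5.43 and 4.28 signal in the controls, against 4.05 and 3.98 under knockdown. Here both knockdown libraries were below both controls, and the lower control was nearer to the knockdown libraries than to the other control. The log2 change was -0.22 (standard error 0.20, interval -0.68 to 0.25). It was -0.075 without control 1 and -0.36 without control 2.

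The JNK gene bsk had 1.36 and 3.17 signal in the controls, against 3.56 and 2.92 under knockdown. Control 1 alone was low, and control 2 lay between the knockdown libraries. The log2 change of 0.43 was the largest in size of the 7 and had the widest interval, from -0.23 to 1.09. It was 0.02 without control 1 and 0.84 without control 2. Its exons held the fewest reads of the 7 genes: summed over bins there were 216 in control 1 and 331 to 516 in the others, against 7078 to 10943 for kay.

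Of the AP-1 subunits, Jra stood at 5.94 and 4.77 signal in the controls, against 5.30 and 6.65 under knockdown, with overlapping groups and a log2 change of 0.13 (interval -0.35 to 0.61). It was 0.08 over the exons that touch no other gene, and ran from -0.006 without knockdown 2 to 0.27 without knockdown 1. Its partner kay stood at 17.8 and 16.8 signal in the controls, against 21.0 and 17.4 under knockdown. Knockdown 1 was the highest and knockdown 2 lay between the controls, and the log2 change was 0.14 (interval -0.28 to 0.55). It was 0.006 without knockdown 1 and 0.26 without knockdown 2.

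The feedback gene puc, which is widely used as a readout of JNK activity in flies, stood at 6.60 and 5.82 signal in the controls, against 5.78 and 6.68 under knockdown. The groups overlapped fully. The log2 change was 0.00 (standard error 0.19), with a 95% interval of -0.44 to 0.45 (limma, adjusted p = 0.9995). This interval is per gene and unadjusted, so a larger change could also have failed the adjusted test.

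**Figure D2:**
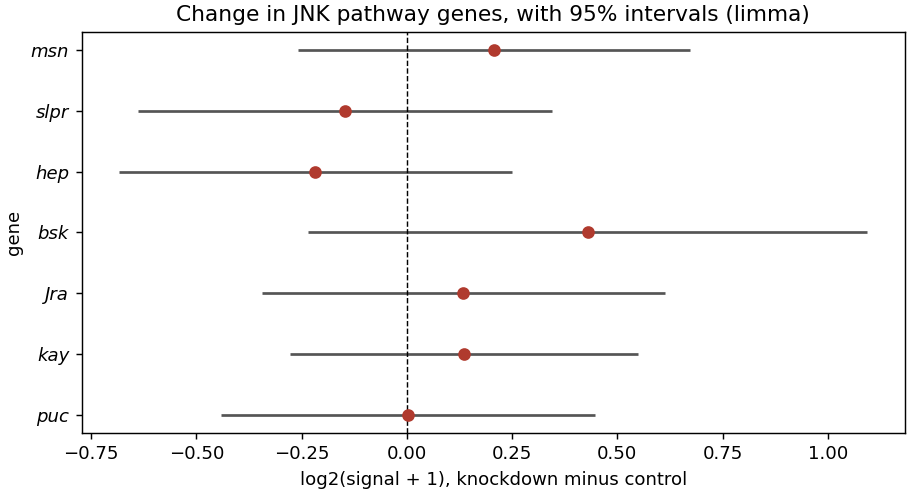
Log2 change in signal + 1, knockdown minus control, for each gene with its 95% interval from limma. All 7 intervals cross 0, from the narrowest for kay (-0.28 to 0.55) to the widest for bsk (-0.23 to 1.09).

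In the hMeRIP lists, 3 of the 7 genes had a peak in an exon in the dTet list (msn, kay and puc) and 1 in the yellow list (kay). Among the 6086 detected genes the shares were 7.74% for the dTet list (95% Wilson interval 7.09 to 8.44) and 5.57% for the yellow list (5.02 to 6.17). The interval covers counting error only, and the shares are not matched to the 7 genes in signal or length. The gene msn was chosen by its dTet-list peaks, so the count of 3 was partly set by that choice. It was not tested against the share. Peaks were counted as touching an exon or as shared between lists at 1 bp of overlap. In all, 10 dTet-list peaks, 6 of them in msn, and 1 yellow-list peak lay in the spans of the 7 genes. Of the 10, 9 met no yellow-list peak, 6 of them the msn peaks that the choice used. Over the chromosome arms 43.8% of the 591 dTet-list peaks met none, and 28.4% of the 479 yellow-list peaks met no dTet-list peak. No peak of either list lay in slpr, hep, bsk or Jra. Each list comes from 1 sample and gives positions without heights, so a peak missing from a list cannot be told from one just under that list's threshold, and the genotype could not be tested.

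The gene msn (3L, 2554846 to 2586539 in dm3, 20 exons over 31.7 kb) held 6 peaks in the dTet list and 0 in the yellow list. They lay at 2557648 to 2558546 over exons 6 and 7 in genome order, at 2559970 to 2560793 over exon 8, and at 2561781 to 2562460 over exon 9. The next lay at 2563667 to 2564103 over exon 10 and at 2564244 to 2564913 over exon 11, and the last at 2566078 to 2567177 over exons 13, 14 and 15. The 6 peaks thus lay spread over a stretch of 9.5 kb, each on its own exon or run of exons, with gaps of 140 to 1423 bp between them. They covered 40.2% of the exonic length of msn. Between 21.7% and 77.8% of a peak lay in exons, and 58.3% of their summed length did, so each also ran into intron sequence beside its exons. The nearest yellow-list peak lay 12.5 kb away, outside the gene.

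The longest exon of msn, exon 1 (2554846 to 2556728), had 25.8 signal on average over the 4 libraries and no peak. Exons 2 to 5, exon 12 and exons 16 to 20 at the other end had no peak either, at lower mean signals of 0.459 to 12.1. With widths of 437 to 1100 bp, 5 of the 6 peaks were narrower than the median peak on the chromosome arms in the dTet list, which was 987 bp, against 544 bp in the yellow list. The count of 6 was the highest of any detected gene on the arms, so that msn alone makes up the 0.0164% of detected genes with 6 or more such exonic peaks. By peaks anywhere in the gene span that met no yellow-list peak, introns included, Syp, which encodes an RNA-binding protein, came next with 3. Another 21 genes had 2 each, among them Smr, Socs36E, larp, lig, CG32521 and kis, and 200 had 1. At least 2 such peaks in the span were found in 0.378% of detected genes, and at least 2 that touched an exon in 0.329%. The choice of msn used this count.

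Ranked over all listed genes, whatever their signal, the symbols with the most dTet-list peaks without a yellow counterpart were CR41602, CR41619, CR40503, CR40685 and CR41540, with 121 to 160 in their spans. Their listed exons are spread over 13407 kb or more of Uextra, which holds unplaced sequence, so a span of this kind is no single locus. On the arms alone, whatever the signal, CG31131 with 58 and CR45194 with 54 came first, ahead of msn. None of these peaks touched an exon of theirs, their mean control signal was 0.0, and their spans were 23441.9 and 20089.0 kb. The restriction to detected genes on the arms was made after these values were seen.

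**Figure D3:**
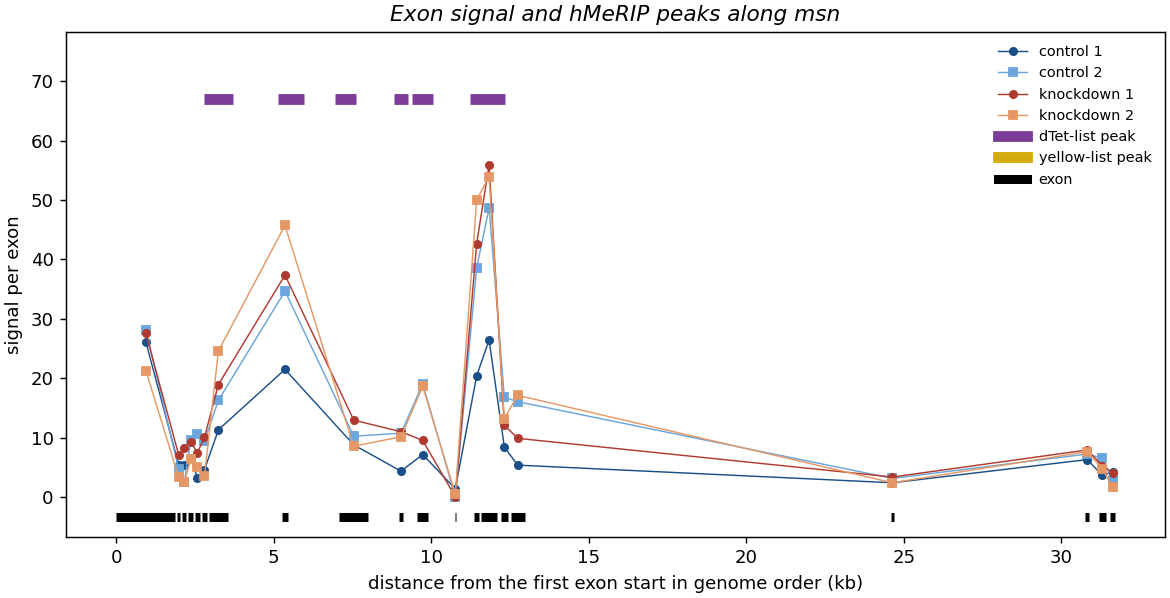
RNA-seq signal of each msn exon (points at exon centres, 1 line per library) against distance from the first exon start in kb, with exons as black bars and dTet-list peaks as purple bars. The 6 peaks lie over exons 6 to 11 and 13 to 15, and 0 yellow-list peaks fall in the gene. In control 1 exons 8, 13 and 14 stand well below the other libraries.

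RNA-seq signal was compared between msn exons with and without a dTet-list peak, a measure the choice of msn did not use. The 9 exons under a peak had 12.7 and 21.7 signal in the controls, against 23.1 and 24.2 under knockdown. The 11 exons without one had 15.9 and 18.9 signal in the controls, against 17.9 and 14.8 under knockdown. The ratio of the first to the second was 0.80 and 1.15 in the controls, against 1.29 and 1.63 under knockdown. Both knockdown libraries were higher, and control 1, whose coverage was the least even, was the lowest. The difference in log2 ratio was 0.60, with p = 0.333 in an exact permutation test (two-sided, n = 2 against 2), the smallest that this design allows, and 0.667 adjusted over the 3 genes with a peak. In kay this ratio was 11.2 and 7.69 in the controls, against 6.77 and 8.28 under knockdown, and in puc it was 3.65 and 1.17 against 1.09 and 1.66. Groups overlapped in both, with control 1 highest in each.

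By single exons, 52 of the 60 exons of the 7 genes reached a mean signal of 1 and were tested. None passed, against 0.0% of 23023 exons in all (limma, smallest adjusted p among the 52 = 0.9988), and 2 had an unadjusted p under 0.05, where 3.96% of all exons did. One was exon 13 of msn (2566201 to 2566374), with 20.4 and 38.6 signal in the controls, against 42.7 and 50.03 under knockdown, a log2 change of 0.70 with a standard error of 0.29 (unadjusted p = 0.0365). Its neighbour exon 14 (2566433 to 2566932) had the highest mean signal of the gene, with 26.4 and 48.7 against 55.9 and 53.9, and a log2 change of 0.60. In exon 8 the values were 21.5 and 34.7 against 37.4 and 45.7, and in exon 7 they were 11.3 and 16.3 against 18.9 and 24.6. These 4 exons lie under dTet-list peaks, and in each both knockdown libraries were above both controls, as was so in exon 18 and in 16.6% of all exons. Over the 52 tested exons of the 7 genes, the groups lay apart in 12, against 31.8% of all exons. Of the other tested msn exons under a peak, 4 were higher and 1 lower in the mean, all with overlapping groups. Control 1 was the lowest of the 4 libraries in 12 of the 20 msn exons. Without control 1 no exon of the 7 genes had an unadjusted p under 0.05, and without control 2 there were 9 of the 52. For whole genes the counts were 0 of the 7 without control 1 and 2 of the 7 without control 2, and none passed after adjustment in either (limma).

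The other such exon was exon 4 of bsk (2L, 10248524 to 10248721), with 1.16 and 2.73 signal in the controls, against 5.73 and 4.10 under knockdown, a log2 change of 1.05 with a standard error of 0.42 (unadjusted p = 0.0303). In bsk the end exon 1 (10247501 to 10247772) was even across libraries, at 6.02 and 6.69 signal in the controls, against 7.07 and 6.26 under knockdown. Control 1 was the lowest library in all 7 exons of bsk, and exon 6 was at 0 there while the other libraries had 1.42 to 2.04. The low gene value of bsk in control 1 therefore came from exons 2 to 7. What the uneven coverage of control 1 contributed to this was not tested.

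Along hep (X, 12973237 to 12984466, 11 exons), control 1 was the highest library in 7 exons. Exon 5 had the highest mean, with 12.2 and 8.71 signal in the controls, against 8.56 and 7.15 under knockdown. Exon 2 (12974670 to 12975150) had 3.65 and 3.29 signal in the controls, against 1.64 and 1.67 under knockdown, a log2 change of -0.75 (unadjusted p = 0.0796). Exon 10 (12980685 to 12981172) lay the other way, with 1.78 and 1.23 signal in the controls, against 3.12 and 2.75 under knockdown, a log2 change of 0.66 (unadjusted p = 0.133). In exons 2, 5 and 10 the groups were apart, as in 31.8% of all exons. In exon 1 (5.85 and 4.84 against 4.28 and 5.04) and exon 11 (4.58 and 5.48 against 5.03 and 4.34) they overlapped. Exon 9 was at 2.04 in control 1 and at 0 in the other 3 libraries.

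In slpr (X, 8064261 to 8071217, 8 exons), exon 1 held most of the length and had 5.28 and 4.51 signal in the controls, against 4.31 and 4.05 under knockdown. Exons 4 and 5 were at 0 in both knockdown libraries and at 0.312 to 1.63 in the controls, below the mean signal needed for a test. In Jra (2R, 5983984 to 5986060, 3 exons), exon 3 carried the signal, at 7.26 and 5.60 against 6.07 and 8.23, and exon 1 was at 0 in all 4 libraries. Exon 3 shares 38 bp with an exon of RpLP0-like.

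**Figure D4:**
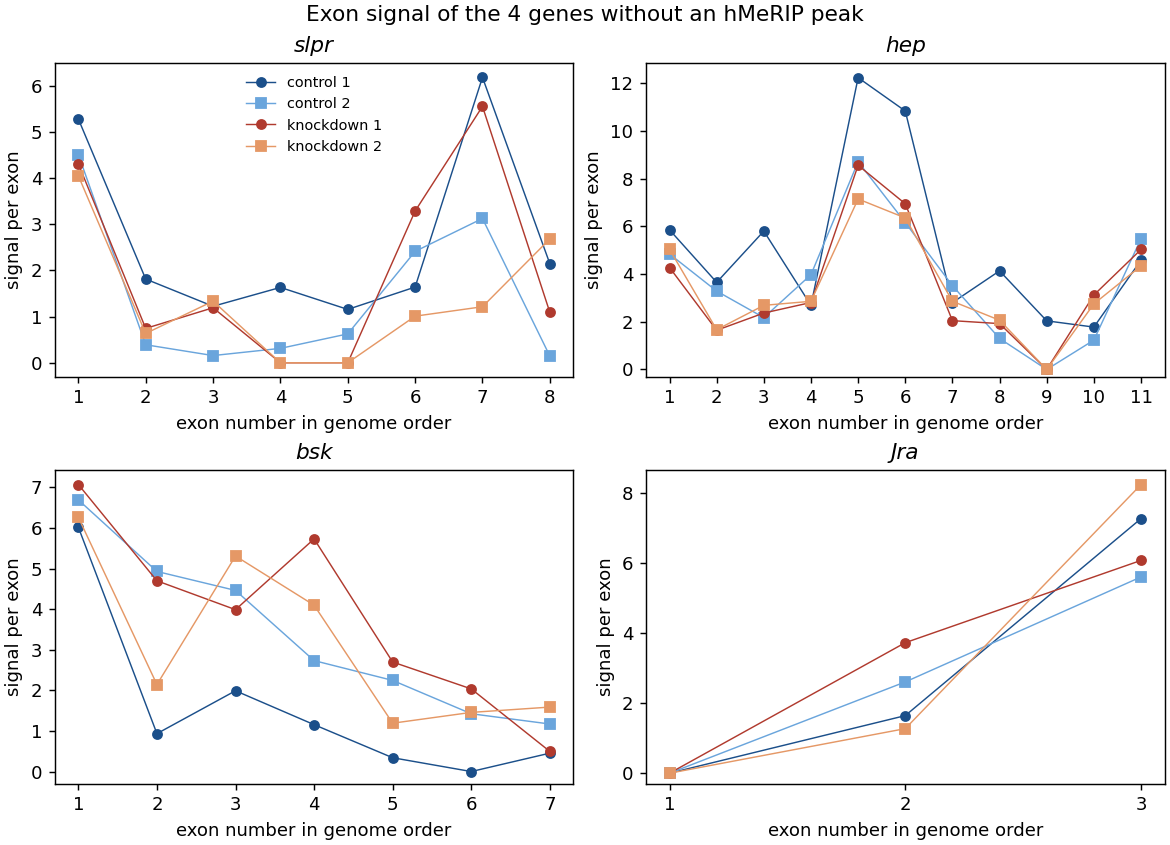
RNA-seq signal per exon, by exon number in genome order, for slpr, hep, bsk and Jra, with 1 line per library. Control 1 is the lowest line in all 7 exons of bsk and the highest in 7 of 11 exons of hep, and exon 2 of hep has both knockdown points (1.64 and 1.67) below both controls (3.29 and 3.65), while exon 10 has both above (2.75 and 3.12 against 1.23 and 1.78).

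The Fos gene kay (3R, 25591716 to 25619834, 6 exons over 28.1 kb) was the only one of the 7 with a peak in both lists. The yellow-list peak at 25599191 to 25599664 (474 bp) lay over exon 2, inside a wider dTet-list peak at 25598987 to 25599700 (714 bp). A second dTet-list peak at 25616973 to 25618720 covered exon 5 and part of exon 6, where no yellow-list peak was called. At 1748 bp it was wider than 93.6% of the arm peaks of its list. Exon 6 (25617508 to 25619834) was also where kay had its highest signal, at 46.3 and 41.4 signal in the controls, against 51.1 and 44.0 under knockdown. Exon 2, under the shared peak, had 8.95 and 11.6 signal in the controls, against 12.2 and 10.006 under knockdown. The first exon stood at 1.21 and 2.86 against 3.95 and 3.34, where both knockdown libraries were above both controls (log2 change 0.66, unadjusted p = 0.143).

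The phosphatase gene puc (3R, 3931053 to 3948015, 5 exons) had 2 dTet-list peaks and 0 yellow-list peaks. The one at 3946419 to 3946952 lay wholly inside exon 5, the longest exon, which had 9.81 and 6.24 signal in the controls, against 5.996 and 8.13 under knockdown. The one at 3939770 to 3940508 lay in the intron between exons 4 and 5. The nearest yellow-list peaks were 536.2 and 542.6 kb away. Both peaks were narrow for their list, at 534 and 739 bp, wider than 3.0% and 19.0% of its arm peaks. A dTet-list peak in an exon without any exonic yellow-list peak, as in puc and msn, was found in 3.11% of detected genes.

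**Figure D5:**
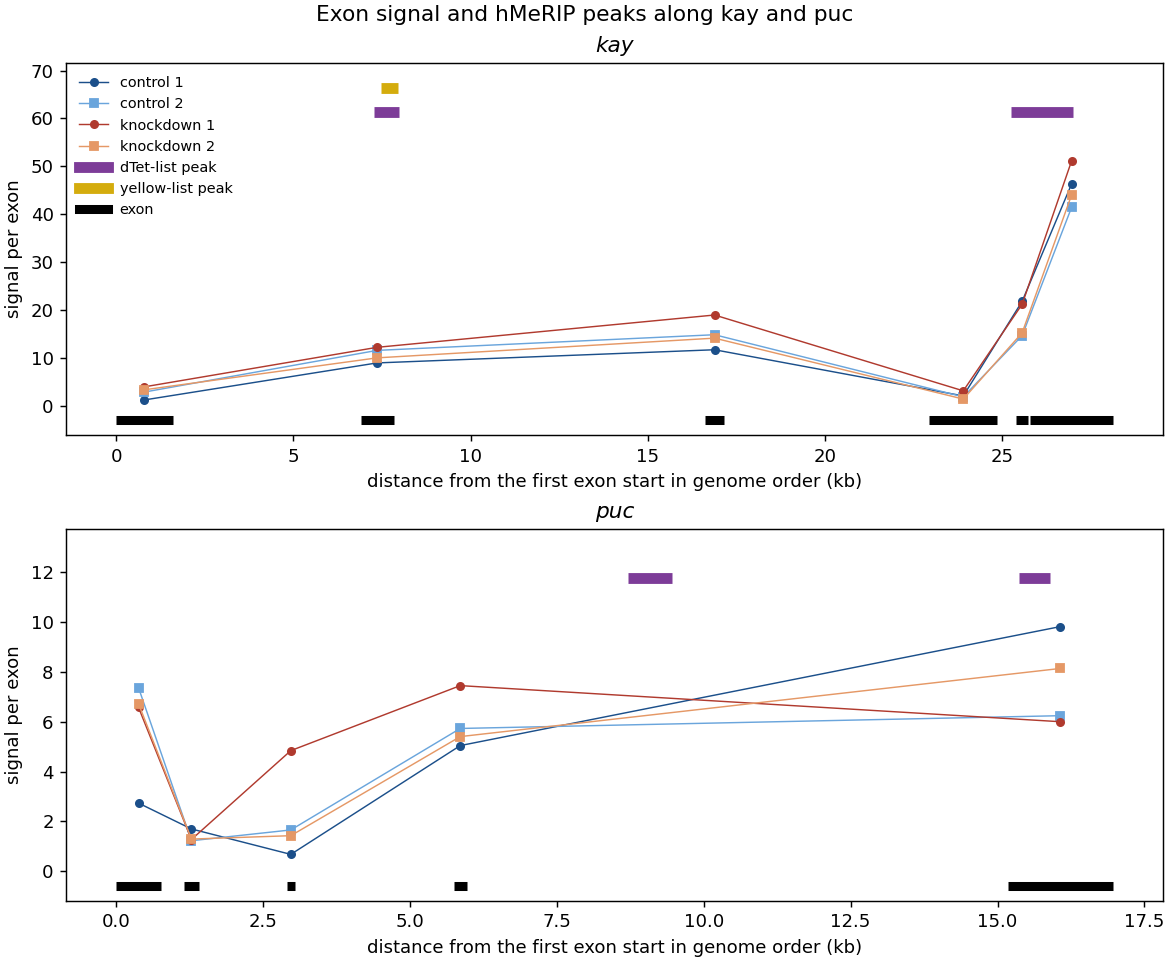
RNA-seq signal per exon along kay (top) and puc (bottom), against distance from the first exon start in kb, with exons as black bars and hMeRIP peaks above. In kay the yellow-list peak lies within a dTet-list peak over exon 2 and the second dTet-list peak lies over exons 5 and 6. In puc both peaks are of the dTet list.

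Genes that feed into or out of these 7 were taken from 5 lists with 69 genes, of which 53 were tested. None passed (limma, smallest adjusted p = 0.9995), and 1 had an unadjusted p under 0.05, CrebA. Their median log2 change was -0.01 (23 higher and 30 lower), against -0.03 over all genes. Knockdown and control libraries did not overlap for 16 of the 53, close to the 30.6% of all genes.

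Among receptors and adaptors, 11 of 14 were tested, 5 higher and 6 lower, with a median of -0.02. The TNF ligand gene egr had 14.4 and 16.0 signal in the controls, against 13.5 and 12.8 under knockdown (log2 change -0.20). Its receptor gene wgn had 5.46 and 4.84 against 4.21 and 4.15 (-0.25), and the adaptor gene Traf4 had 6.46 and 5.81 against 5.15 and 4.15 (-0.34). In these 3 genes both knockdown libraries were below both controls, as in 17.4% of all genes. The other TNF receptor gene, grnd (listed as CG10176), was at 0 to 0.03 signal. The tyrosine kinase gene shark lay the other way, at 1.61 and 1.61 against 2.49 and 2.20 (0.35). A yellow-list peak of 529 bp touched an exon of wgn, and no dTet-list peak did.

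Of 8 genes for other upstream kinases or their partners 7 were tested, 3 higher and 4 lower, with a median of -0.01. Tab2, a partner of the kinase Tak1, had 3.81 and 2.15 against 2.27 and 2.14 (-0.28), with control 1 alone high. Tao had 5.74 and 6.57 against 7.32 and 7.10 (0.20), Ask1 (listed as Pk92B) had 0.17 and hppy had -0.07. No peak lay in this list.

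Of 15 scaffolds and regulators 13 were tested, 4 higher and 9 lower, with a median of -0.01. The phosphatase gene Mkp had 1.91 and 2.68 signal against 1.64 and 1.87 (log2 change -0.25), the repressor gene aop had -0.18 and the kinase genes p38b and Mkk4 had -0.12 and -0.09. All bins of Mkp and 95.7% of those of p38b lie in exons that overlap an exon of another gene by 1 bp or more, so reads of that gene may be among theirs. Again no peak was found. All 10 AP-1 partner factors and other stress-linked transcription factors were tested, 5 higher and 5 lower, with a median of 0.00. CrebA, which drives secretory pathway genes, had 13.2 and 13.6 signal in the controls, against 9.47 and 9.71 under knockdown, so that the groups were well apart (log2 change -0.44 with a standard error of 0.18, limma unadjusted p = 0.0346, adjusted p = 0.9995). Atf-2 (-0.39) and Ets21C (-0.21, with 54.0% of its bins in such exons) had overlapping groups. Atf3, whose protein pairs with Jun, had 0.28 and a yellow-list peak. The stress factor genes cnc (0.07) and Xrp1 (0.04) each had a dTet-list peak with no yellow counterpart, and CrebB (0.08, with 84.0% of its bins in shared exons) had 2 peaks in each list that met each other.

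Of 22 genes known as JNK or AP-1 targets in fly tissues 12 were tested, 6 higher and 6 lower, with a median of 0.00. The gene scaf, a target in dorsal closure, had 1.34 and 0.954 signal against 1.85 and 2.24 (log2 change 0.51). The cell death gene rpr had 10.5 and 10.015 against 8.72 and 6.40 (-0.41). The filamin gene cher (0.41), the matrix metalloproteinase gene Mmp2 (0.39) and the myosin II gene zip (0.25) had both knockdown libraries above both controls, as in 13.2% of all genes. Hsp68 had 18.8 and 3.57 signal in the controls, against 10.4 and 3.42 under knockdown (-0.42), so the libraries of a group differed more than the groups. All of its bins lie in exons shared with another gene. Both lists had a shared peak in zip and in Mmp2, the yellow list alone had one in the profilin gene chic (-0.03), and the dTet list alone one in Hsp68. Over the 5 lists, 6 of 53 detected genes had an exonic yellow-list peak and 6 an exonic dTet-list peak. Over all detected genes the shares were 5.57% and 7.74%, and the difference was not tested. In no listed gene did more than 1 dTet-list peak lack a yellow counterpart.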

How the data were processed

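The 4 RNA-seq files and 2 peak lists were used, and the other 5 samples were not analysed here. Per the submitters' processing notes, reads were aligned with BWA to dm3 and hMeRIP peaks were called with MACS 1.4. The peak threshold, the use of input, the counter and the annotation are not given in the sources used here. The deposited exon value is called signal: with a tolerance of 0.05 read, signal times the 40-bp bins of an exon gave whole reads for 100.0% of the exons checked. The deposited peak lists hold positions and no other unit.

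Overlapping exons of a gene were joined, the longest standing for the rest, and gene signal was their mean weighted by bins. Exon positions are as in the files, and peak starts are counted from 1. Genes, and exons, with a mean signal of 1 or more were tested on log2(signal + 1) with limma 3.58.1 in R 4.3.3 (lmFit, eBayes with a trend), two-sided, with Benjamini-Hochberg adjustment over all of them. This was tested on simulated data. The 7 symbols are current names in the RefSeq gene table. The other genes named are the 4 with the smallest p in each list, those with a peak, CG43444, and the genes most like msn in dTet-list peaks. Outside that rule, grnd is named as the other TNF receptor gene, as are genes that share exon sequence with the 7. One further list of pathway genes is not reported here. Members and lists were chosen with earlier results of these data known. Same-numbered libraries did not deviate together (r = 0.014 over 6050 genes), so the numbers were not taken as pairs.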

Additional observations from a re-analysis of the deposited data

How the results depend on the processing

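No gene of the 7, none of the 52 exons tested and none of the 53 other pathway genes passed under any alternative run with limma: pseudocount 0.1, no filter on low signal, no trend, quantile or median scaling, exons of 1 gene only, the replicate block and each library left out (exons under the pseudocount, the block and the left-out libraries only, and 47 of the 53 genes with exons of 1 gene). With the replicate block 0 of the 7 genes passed, 5 exons had an unadjusted p under 0.05 (limma), and no call changed. In this balanced design the block cannot move the log2 changes, so their staying the same shows nothing. The direction turned with 1 library left out for msn (range -0.028 to 0.441), Jra (-0.006 to 0.274) and puc (-0.086 to 0.092), and the cause was not tested. Among other named genes the same held for hppy (-0.220 to 0.075), Tab2 (-0.584 to 0.025), Pk92B (-0.040 to 0.379), Mkk4 (-0.219 to 0.034), Atf-2 (-0.844 to 0.069), cnc (-0.047 to 0.197), Ets21C (-0.495 to 0.082), CrebB (-0.013 to 0.176), Xrp1 (-0.015 to 0.101), chic (-0.150 to 0.098) and Hsp68 (-1.483 to 0.634). The gene chic had 0.021 with median scaling. With peaks of 500 bp or more, kay lost its yellow-list peak, leaving 0 in the 7 genes, and msn lost its dTet-list peak of 437 bp. The dTet list then held 9 peaks in the 7 genes. All 9 were without a yellow-list peak, the formerly shared peak of kay among them. At that width 3.60% of detected genes had a yellow-list peak, against 5.57% with all peaks. For the dTet list the share was 7.64%, against 7.74%, so the limit weighed mostly on the yellow list. The share with a dTet-list peak and no yellow-list peak rose from 3.11% to 4.52%. A dTet-list peak can thus count as alone because a narrower yellow-list peak was dropped, as in kay. With peaks anywhere in the gene span 6.42% had a yellow-list peak. With 2 libraries a group and few reads in bsk, changes within the intervals given could not be told from 0. The intervals are per gene and unadjusted, so larger changes could also have failed the adjusted test.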
